A study of Mus musculus with 6 samples.

Results

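The genes described here encode the subunits of integrins and laminins, measured in hearts of GRK2+/- and wild-type (WT) mice. They were chosen by symbol: a probe set (the group of array probes that reports 1 transcript) annotated to exactly 1 gene whose symbol starts with Itga or Itgb, or is Lama, Lamb or Lamc with a number. Symbols of the Itgb1bp and Itgbl kind were left out, and each gene was represented by its brightest probe set, judged by the mean of the 6 arrays. This gave 36 genes of 18193 named genes: 16 integrin alpha subunits, 9 integrin beta subunits, 5 laminin alpha, 3 laminin beta and 2 laminin gamma subunits, and Itgb3bp. Itgb3bp matches the symbol rule, yet it encodes an integrin-binding nuclear and centromere protein, not a subunit. It is therefore given apart from the 35 subunits.

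Each group held 3 hearts of 9-month-old mice, with 1 Affymetrix expression array per heart. GRK2+/- mice (strain B6.129-Adrbk1tm1Mca/J) carry 1 targeted allele of the gene for G protein-coupled receptor kinase 2, which desensitises beta-adrenergic and other receptors, in every cell; the other copy is intact, and the line was backcrossed to C57BL/6J. WT animals were C57BL/6J littermates. The labels do not give the sex of the animals. The level of Grk2 itself was not analysed here, so the targeted gene did not check the labels.

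Laminins are cross-shaped proteins built from an alpha, a beta and a gamma chain, and they form the sheet-like core of basement membranes around cardiomyocytes, capillaries and smooth muscle. Integrins are cell-surface receptors made of an alpha and a beta chain, which tie laminins, collagens, fibronectin and other ligands to the cytoskeleton and signal from the cell's contacts. In cardiomyocytes the receptors of costameres, where the contractile apparatus meets the membrane, are mostly pairs with the beta chain Itgb1, and the dystroglycan complex binds laminin beside them.

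The comparison of GRK2+/- with WT hearts asked how loss of 1 Grk2 allele alters gene expression in the heart. Genes of 4 laminin chains of heart basement membranes (Lamb1, Lamb2, Lama4 and Lamc1) were higher at an unadjusted limma p under 0.05. So were the muscle laminin receptor chain Itga7 and Itgb6, and these differences were 0.21 to 0.46 on the log2 scale. For Lama4 and Lamc1 the mean of their probe sets gave only 0.043 and 0.027. The collagen receptor chain Itga2, the platelet chain Itga2b and Itgb3bp were lower, with differences of -0.18 to -0.33. The other 27 of the 36 genes did not reach that p, among them Itgb1. No gene passed the adjusted threshold: with limma and Benjamini-Hochberg adjustment over all named genes, 0 of 36 were called at 0.05, and 0.0% of the 18193 genes were. The smallest adjusted p of the 36 was 0.176 and the largest 0.977.

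**Figure D1:**
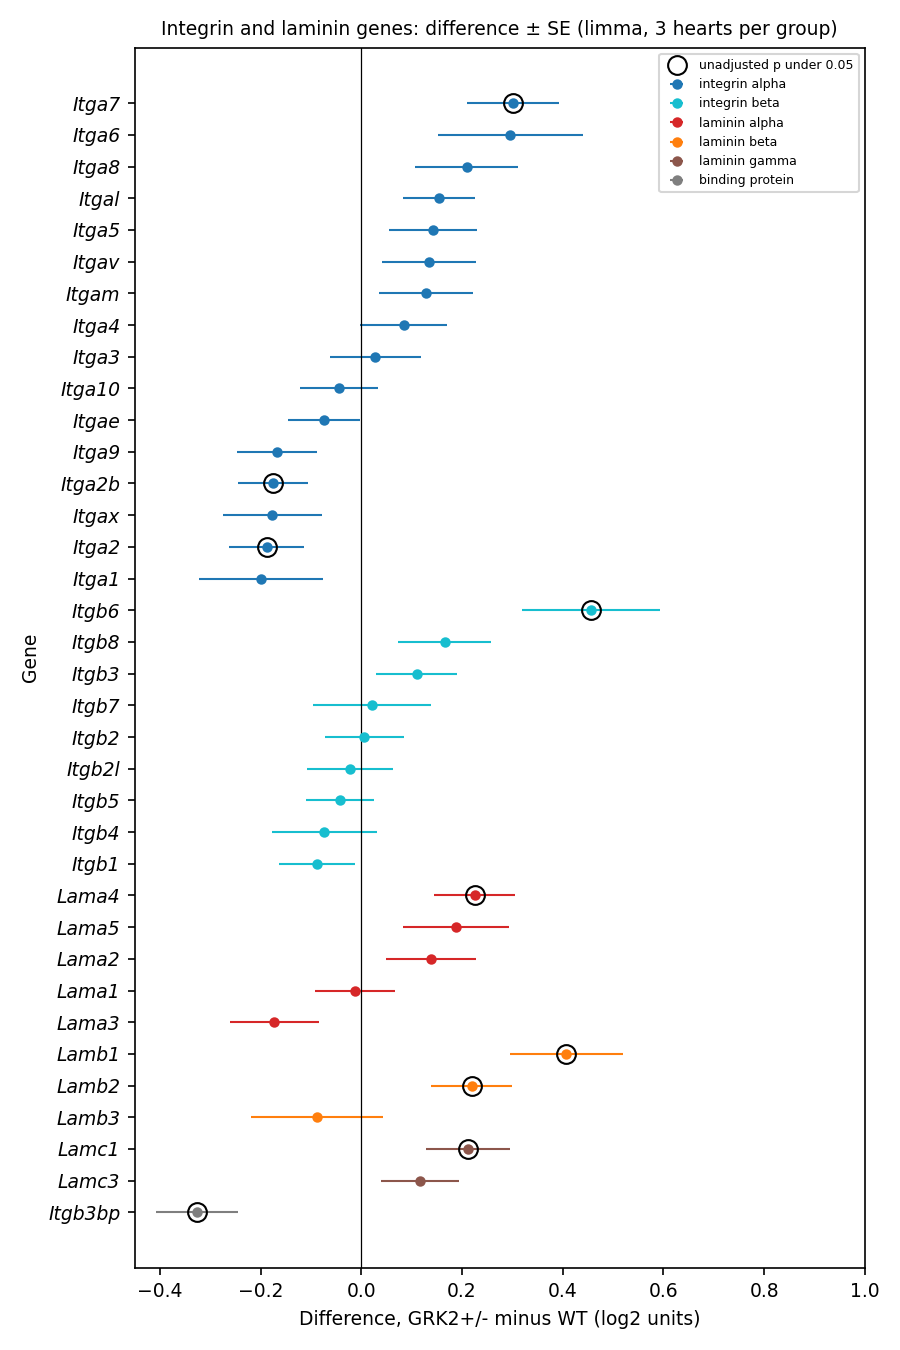
Difference in level between GRK2+/- and WT hearts (x axis, log2 units, GRK2+/- minus WT) for each of the 36 genes (y axis), ordered by role and then by size; points are estimates from 3 hearts per group, bars are limma's SE, colours mark the role and open circles mark an unadjusted p under 0.05. Circled points to the right of 0 belong to Itga7, Itgb6, Lama4, Lamb1, Lamb2 and Lamc1, and those to the left to Itga2b, Itga2 and Itgb3bp.

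At the unadjusted p, 6 of 36 genes were higher, where 6.3% of all genes were, and 3 were lower, where 7.7% of all genes were. Centring each array on its median turned the split of the 36 genes from 6 higher and 3 lower into 9 and 1, and that of all genes from 1146 and 1400 into 1546 and 890. The 3 GRK2+/- hearts all lay above the 3 WT hearts for 6 genes, against 7.44% of all genes, and all below for 4, against 11.6%. The median difference over the 36 genes was 0.056, beside -0.019 over all genes. Laminin subunits had a median of 0.16 and integrin subunits one of 0.022; with the mean of all probe sets of a gene, these were 0.033 and -0.030. All 6 genes with a higher level at the unadjusted p were among the 20 members at or above the median level of the gene table (7.24), where 9.62% of all genes were higher and 6.45% lower. Itga2b was the single one of those 20 that was lower. Among the 16 members below that level, 0 were higher and 2 were lower, beside 271 higher and 813 lower of all 9096 genes below it.

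Of the 10 laminin subunits, 4 were higher and 0 lower at the unadjusted p, and 7 differences were above 0. Of all genes, 6.3% were higher and 7.7% lower (9.62% and 6.45% at or above the median level). Lamb1 and Lamb2 encode the beta chains that share most laminins of heart muscle and vessels. Lamb1 stood at 9.84, 10.15 and 9.91 in the GRK2+/- hearts and at 9.66, 9.68 and 9.34 in the WT hearts. The lowest GRK2+/- heart was above the highest WT heart, and the WT spread came mostly from heart 3. The group means were 9.97 ± 0.17 and 9.56 ± 0.19 (SD, n = 3), a difference of 0.41 ± 0.11 (SE), or 1.33-fold, with a limma adjusted p of 0.201. Lamb2 stood at 10.01, 9.79 and 9.88 in GRK2+/- hearts and at 9.76, 9.59 and 9.68 in WT hearts. The groups did not overlap, but GRK2+/- heart 2 was only slightly above WT heart 1. The difference for Lamb2 was 0.22 ± 0.08, or 1.16-fold, with a limma adjusted p of 0.279.

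Lama4 encodes the alpha chain of endothelial and smooth muscle basement membranes. Its levels were 9.40, 9.41 and 9.37 in GRK2+/- hearts, nearly the same in each, and 9.27, 9.23 and 9.01 in WT hearts. All GRK2+/- hearts were above all WT hearts, and WT heart 3 was the lowest. The difference was 0.22 ± 0.08, or 1.17-fold, with a limma adjusted p of 0.276. Without WT heart 3 it was 0.15, so that heart supplied part of its size. Lamc1 encodes the gamma chain of nearly all basement membrane laminins. It measured 9.23, 9.17 and 8.98 in GRK2+/- hearts and 8.87, 9.00 and 8.88 in WT hearts. GRK2+/- heart 3 lay just below WT heart 2, so the groups overlapped. The difference for Lamc1 was 0.21 ± 0.08, or 1.16-fold, with a limma adjusted p of 0.313. Lama4 and Lamc1 each have a further probe set of the opposite sign, and with the mean of both probe sets the differences were 0.043 for Lama4 and 0.027 for Lamc1.

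The other laminin chains stayed above an unadjusted p of 0.05. Lama2, the alpha chain of the cardiomyocyte basement membrane, had 9.89, 9.85 and 9.64 in GRK2+/- hearts and 9.72, 9.73 and 9.53 in WT hearts. In both groups heart 3 was the lowest, and the groups overlapped, with a difference of 0.14 ± 0.09 (limma adjusted p = 0.503). Lama5, an alpha chain of vessel walls and epithelia, had 9.94, 9.52 and 9.62 in GRK2+/- hearts and 9.55, 9.43 and 9.54 in WT hearts. Its difference of 0.19 ± 0.11 (limma adjusted p = 0.447) came mostly from GRK2+/- heart 1, without which it was 0.064. Lama3, Lamb3 and Lama1, chains best known from epithelia and embryonic tissue, had differences of -0.17 ± 0.09, -0.09 ± 0.13 and -0.01 ± 0.08. Lama3 measured 6.30 ± 0.03 in GRK2+/- and 6.47 ± 0.17 in WT hearts, Lamb3 7.84 ± 0.12 and 7.93 ± 0.29, and Lama1 5.48 ± 0.10 and 5.49 ± 0.08. Lamc3 was at 5.68 ± 0.05 and 5.57 ± 0.11, a difference of 0.12 ± 0.08. The 3 laminin chains with a difference below 0 were thus Lama1 (0.016 with each array centred on its median), Lama3 and Lamb3.

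**Figure D2:**
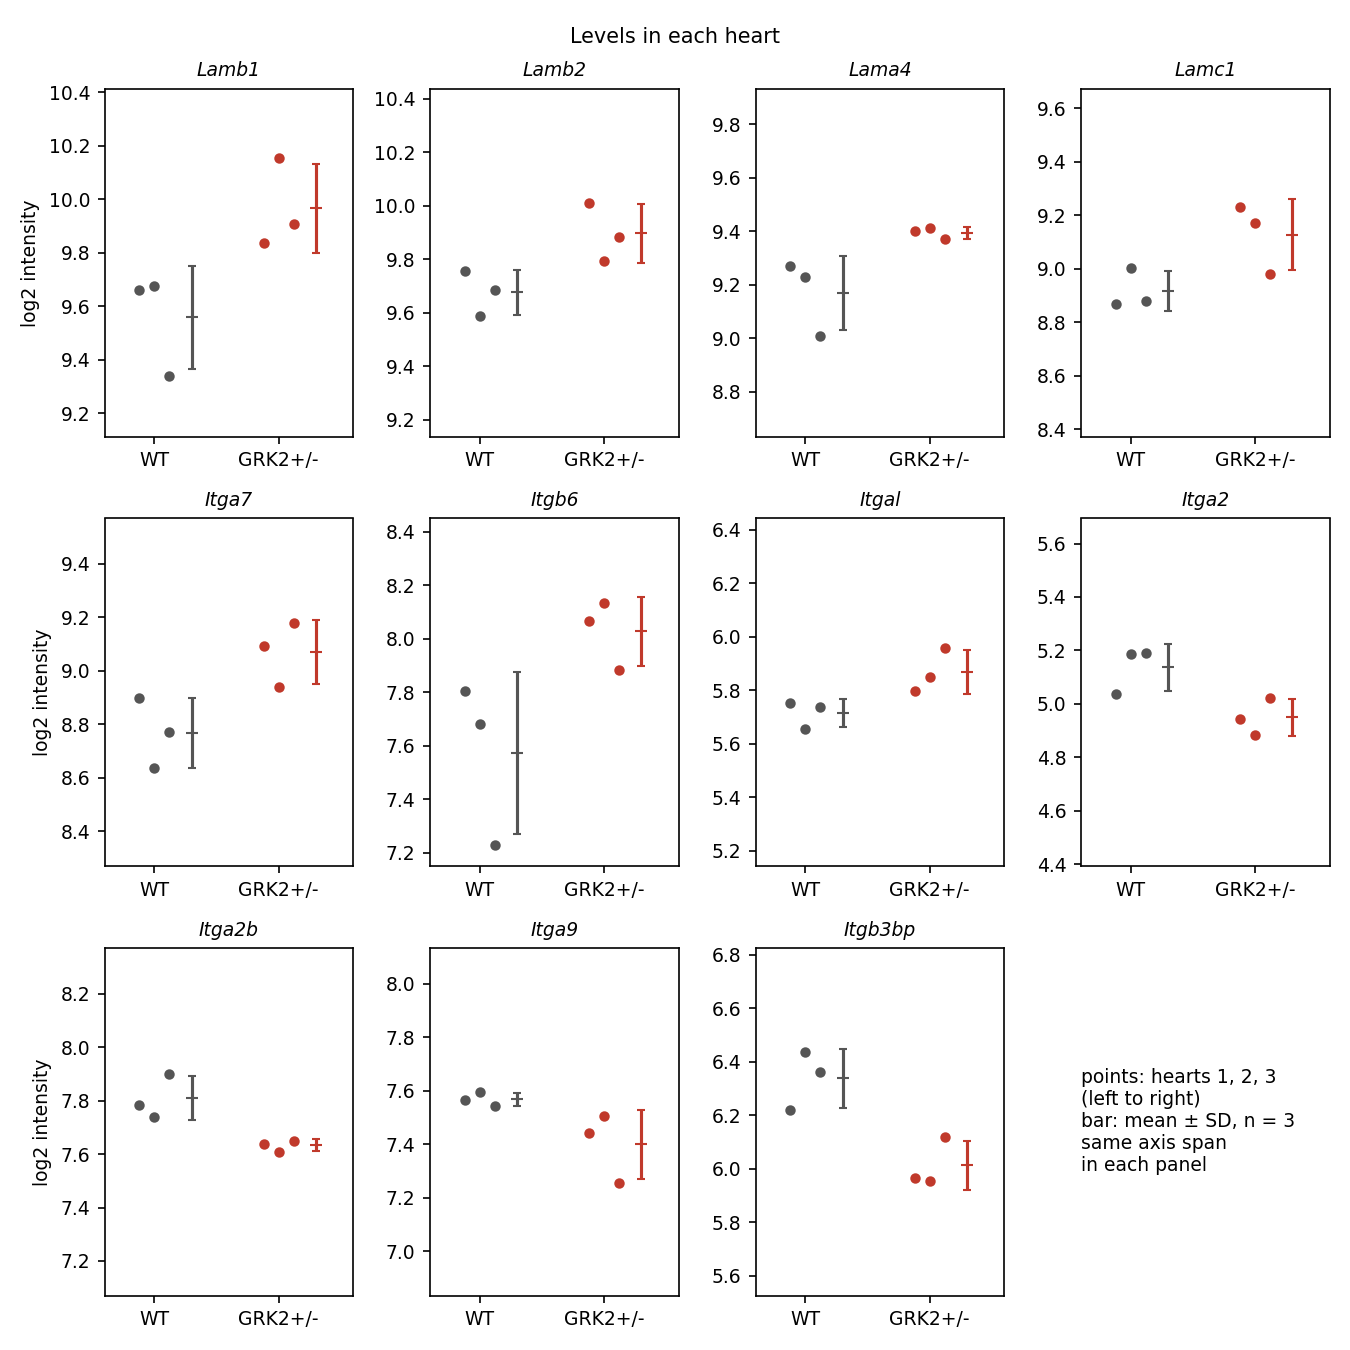
Level in each heart (y axis, log2 intensity, the same span in every panel) for the 11 genes with an unadjusted p under 0.05 or without overlap between groups; points are hearts 1 to 3 from left to right and bars are the mean ± SD, n = 3. Lamc1 is the single gene shown whose groups overlap, and WT heart 3 is the lowest point for Lamb1, Lama4 and Itgb6.

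Among the laminin-binding integrin chains, Itga7 was higher and its partner Itgb1 was not. Itga7 encodes the main laminin-binding alpha chain of heart and skeletal muscle. It measured 9.09, 8.94 and 9.18 in GRK2+/- hearts and 8.90, 8.64 and 8.77 in WT hearts. Every GRK2+/- heart was above every WT heart, though GRK2+/- heart 2 and WT heart 1 were close. The means were 9.07 ± 0.12 and 8.77 ± 0.13, a difference of 0.30 ± 0.09, or 1.23-fold, with a limma adjusted p of 0.222. Itga6, a laminin-binding chain of endothelial and epithelial cells, measured 9.51, 9.82 and 9.51 in GRK2+/- hearts and 9.31, 9.63 and 9.02 in WT hearts. WT heart 2 was above 2 of the GRK2+/- hearts, and heart 2 was the highest of each group. Its difference had the same size as that of Itga7, 0.30, with a larger SE of 0.14 and a limma adjusted p of 0.389. Single hearts moved it: it was 0.15 without WT heart 3, 0.19 without GRK2+/- heart 2 and 0.45 without WT heart 2.

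Itgb1, the beta chain shared by the laminin-, collagen- and fibronectin-binding integrins of the heart, measured 10.66, 10.55 and 10.48 in GRK2+/- hearts and 10.69, 10.69 and 10.58 in WT hearts. The groups overlapped, and the difference was -0.09 ± 0.07 (limma adjusted p = 0.621). Itga3, another laminin-binding chain, was at 8.20, 7.93 and 7.87 in GRK2+/- hearts and at 7.97 ± 0.04 in WT hearts, a difference of 0.03 ± 0.09. Itgb4, which pairs with Itga6 in epithelial anchoring structures, was at 6.55 ± 0.14 and 6.62 ± 0.18, a difference of -0.07 ± 0.10.

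Of the integrins that bind the RGD motif of fibronectin, vitronectin and latent TGF-beta, Itgb6 had the largest difference of the 36 genes. Itgb6 pairs with Itgav, is best known from epithelia and activates latent TGF-beta. It measured 8.07, 8.13 and 7.88 in GRK2+/- hearts and 7.80, 7.68 and 7.23 in WT hearts. The groups did not overlap, and WT heart 3 was well below the other WT hearts. The means were 8.03 ± 0.13 and 7.57 ± 0.30, a difference of 0.46 ± 0.14, or 1.37-fold, with a limma adjusted p of 0.222. Without WT heart 3 the difference was 0.29. Its partner Itgav was at 9.65 ± 0.17 in GRK2+/- and 9.52 ± 0.08 in WT hearts, a difference of 0.13 ± 0.09 (limma adjusted p = 0.539). Itgb5, the other main partner of Itgav in heart, was at 10.57 ± 0.06 and 10.62 ± 0.04, a difference of -0.04 ± 0.07.

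The remaining chains of this kind did not reach the unadjusted p. Itga8, a chain of smooth muscle and fibroblasts, measured 5.85, 6.21 and 6.05 in GRK2+/- hearts and 5.93, 5.87 and 5.69 in WT hearts. The groups overlapped, because GRK2+/- heart 1 was below WT hearts 1 and 2, and the difference was 0.21 ± 0.10 (limma adjusted p = 0.391). The fibronectin receptor chain Itga5 was at 7.69 ± 0.16 and 7.55 ± 0.06, a difference of 0.14 ± 0.09. Itgb3, the beta chain of the platelet and vitronectin receptors, was at 6.24 ± 0.07 and 6.13 ± 0.12, a difference of 0.11 ± 0.08. Itgb8, which also activates latent TGF-beta, was at 4.55 ± 0.16 and 4.38 ± 0.08, a difference of 0.17 ± 0.09 near the bottom of the scale, where signal is little above background.

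Itga2, Itga1 and Itga10, the 3 collagen-binding chains among the 36 genes, had differences below 0 in the probe sets kept. The other probe set of Itga1 gave 0.36 ± 0.08. Itga2 measured 4.94, 4.88 and 5.02 in GRK2+/- hearts and 5.04, 5.19 and 5.19 in WT hearts. The groups did not overlap, but GRK2+/- heart 3 and WT heart 1 almost met, and the levels were below the 25th percentile of the gene table (5.76). Its difference was -0.19 ± 0.07, a ratio of 0.88, with a limma adjusted p of 0.315. Itga1, the collagen receptor chain of fibroblasts and vessels, measured 7.32, 7.77 and 7.54 in GRK2+/- hearts and 7.80, 7.88 and 7.54 in WT hearts. The groups overlapped, and GRK2+/- heart 1 was the lowest; the difference was -0.20 ± 0.12 (limma adjusted p = 0.49). Itga10 was at 4.50 ± 0.11 and 4.54 ± 0.06, a difference of -0.04 ± 0.08.

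Itga9, a receptor chain for tenascin, osteopontin and other ligands in muscle and lymphatic vessels, measured 7.44, 7.50 and 7.26 in GRK2+/- hearts and 7.57, 7.59 and 7.54 in WT hearts. All GRK2+/- hearts were below all WT hearts, with GRK2+/- heart 3 the farthest. The difference was -0.17 ± 0.08 with a limma adjusted p of 0.376 and an unadjusted p of 0.0609. Without GRK2+/- heart 3 it was -0.095. Itga4, the related chain that binds VCAM-1 and fibronectin, was at 6.36 ± 0.09 and 6.27 ± 0.13, a difference of 0.08 ± 0.09.

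The leukocyte integrin chains, Itgal, Itgam, Itgax, Itgae, Itgb2, Itgb7 and Itgb2l, gave 0 of 7 genes at the unadjusted p and a median difference of 0.0059. At that p, 6.3% of all genes were higher and 7.7% lower. Itgal, the alpha chain of the lymphocyte integrin LFA-1, measured 5.80, 5.85 and 5.96 in GRK2+/- hearts and 5.75, 5.66 and 5.74 in WT hearts. The groups did not overlap, though GRK2+/- heart 1 and WT heart 1 were close, and the difference was 0.15 ± 0.07 (limma adjusted p = 0.372). Its partner Itgb2, shared by several leukocyte integrins, was at 7.33 ± 0.07 and 7.33 ± 0.11, a difference of 0.0059 ± 0.078. The myeloid chains Itgam and Itgax had differences of 0.13 ± 0.09 and -0.18 ± 0.10. Itgam was at 4.94 ± 0.16 and 4.81 ± 0.10, and Itgax at 5.84 ± 0.08 and 6.02 ± 0.19. The mucosal lymphocyte chains Itgae and Itgb7 differed by -0.07 ± 0.07 and 0.02 ± 0.12, with Itgae at 6.30 ± 0.05 and 6.38 ± 0.08 and Itgb7 at 7.33 ± 0.27 and 7.30 ± 0.04. Itgb2l was at 6.67 ± 0.14 and 6.69 ± 0.07, a difference of -0.02 ± 0.09.

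Leukocyte markers were read beside these chains, and beside the 6.3% of all genes higher and 7.7% lower at the unadjusted p. Of 16 measured leukocyte markers, 4 were higher (Ptprc, Csf3r, Coro1a and Lyz2) and 0 lower at the unadjusted p. Their differences were above 0 for 10 and below 0 for 6, with a median of 0.040. Nkg7, with a difference of -0.19, had an unadjusted limma p of 0.0501. The mean log2 level of the list ran from 7.53 to 7.65 in GRK2+/- and from 7.42 to 7.62 in WT hearts. Cd3g, Ms4a1 and Nkg7, markers of T, B and NK cells, were below the 25th percentile of level. Of 10 neutrophil markers, 5 had differences above 0 and 5 below, with a median of 0.036; at the unadjusted p, 3 were higher (S100a8 by 1.97, S100a9 by 2.25 and Csf3r by 0.33) and Mpo was lower, with a difference of -0.39. The neutrophil granule genes Lcn2, Elane, Ngp and Camp had differences of -0.34, -0.13, -0.09 and -0.04. Mpo and Mmp8 of the neutrophil list were below the 25th percentile of level. The mean of the list was 6.72 or more in each GRK2+/- heart and 6.45 to 6.53 in WT hearts, and S100a8 and S100a9 had by far the largest differences in it. Their part in the values of the leukocyte integrins was not tested. In whole tissue, fewer cells of a type and less RNA per cell cannot be told apart.

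Itga2b, the alpha chain of the platelet fibrinogen receptor, measured 7.64, 7.61 and 7.65 in GRK2+/- hearts and 7.78, 7.74 and 7.90 in WT hearts. The groups did not overlap, and the GRK2+/- hearts were nearly alike. The means were 7.63 ± 0.02 and 7.81 ± 0.08, a difference of -0.18 ± 0.07, a ratio of 0.89, with a limma adjusted p of 0.315. Among 8 measured platelet and megakaryocyte markers, Pf4 was higher by 0.32 and Gp9 was lower, with a difference of -0.19. The other 6 did not reach the unadjusted p, at which 6.3% of all genes were higher and 7.7% lower. Differences of the list were above 0 for 3 and below 0 for 5, with a median of -0.034. Gp6, Clec1b and Nfe2 of that list were below the 25th percentile. The list ran from 6.54 to 6.61 in GRK2+/- and from 6.57 to 6.62 in WT hearts, and its part in the value of Itga2b was not tested.

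Itgb3bp, the binding protein that is no subunit, had the smallest p of the 36 genes. It measured 5.97, 5.95 and 6.12 in GRK2+/- hearts and 6.22, 6.44 and 6.36 in WT hearts. All GRK2+/- hearts were below all WT hearts. The difference was -0.33 ± 0.08, a ratio of 0.80, with a limma adjusted p of 0.176 and an unadjusted p of 0.00266.

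The spread over hearts was not even. Of the 35 subunits, 9 had their highest level in GRK2+/- heart 1, 11 in GRK2+/- heart 2 and 3 in GRK2+/- heart 3, while 12 had their lowest level in WT heart 3. Relative to the WT mean, the laminin subunits averaged 0.17, 0.12 and 0.079 in GRK2+/- hearts 1 to 3, and 0.033, -0.0013 and -0.032 in WT hearts 1 to 3. Every GRK2+/- heart was above every WT heart on this average, and GRK2+/- heart 3 was the lowest of its group. The laminin average rests on the probe sets kept. Other probe sets of Lama3, Lama4, Lama5, Lamc1 and Lamc3 had the opposite sign, while those of Lamb1 had the same sign. The integrin subunits averaged 0.050, 0.072 and -0.0034 in GRK2+/- hearts and 0.015, 0.035 and -0.050 in WT hearts, and here GRK2+/- heart 3 fell within the WT hearts. The laminin median difference was 0.092 without GRK2+/- heart 1 and 0.11 without WT heart 3.

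**Figure D3:**
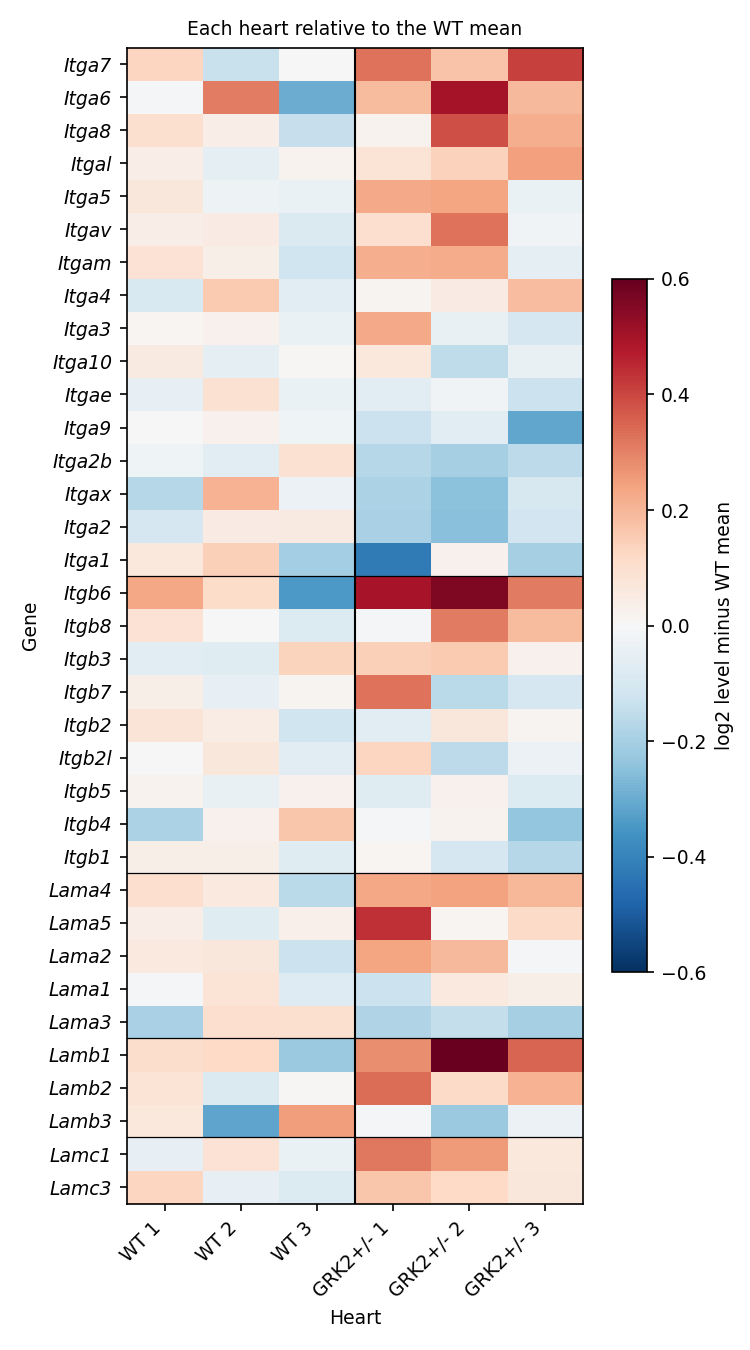
Level of each of the 35 subunits (rows, grouped by role) in each heart (columns) minus the gene's mean over the 3 WT hearts, in log2 units; red is above and blue below the WT mean. WT heart 3 is the lowest of the 6 hearts in 12 rows, and the rows of Lamb1, Lamb2, Lama4, Itga7 and Itgb6 are red in all 3 GRK2+/- hearts.

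Many of these genes are reported by several probe sets, which did not always give the same direction. The 36 genes had 81 probe sets. Of these, 11 were higher at the unadjusted p, where 5.44% of all probe sets were, and 9 were lower, where 7.4% were; with limma and adjustment over all 45037 probe sets, 0 were called and the smallest adjusted p was 0.162. The median difference over the 81 probe sets was -0.0023, with 40 above 0 and 41 below. Over the 45 probe sets not kept, it was -0.031, with 5 higher and 6 lower at the unadjusted p. Of the 22 genes with several probe sets, all probe sets had the same sign for 5 and not for 17.

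Lamb1 had 4 probe sets, all above 0. A second one, at 7.11 in GRK2+/- and 6.71 in WT hearts, gave 0.40 ± 0.08, almost the same as the one kept, while the others gave 0.051 and 0.030. Both probe sets of Itgb6 (0.46 and 0.34) and both of Itga6 (0.30 and 0.41) were above 0. For Lama4 and Lamc1 the other probe set had the opposite sign, -0.14 ± 0.07 and -0.16 ± 0.08. Lamb2, Lama2, Itga7, Itga2 and Itga2b had 1 probe set each, so this could not be checked.

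Some probe sets that were not kept had a smaller p than the one kept. For Itga1 the other probe set gave 0.36 ± 0.08, with 6.99 in GRK2+/- and 6.64 in WT hearts (unadjusted p = 0.00122, limma adjusted p = 0.177), against -0.20 for the one kept. For Itga5, 1 of its 3 others gave -0.31 ± 0.07 (limma adjusted p = 0.179), against 0.14. For Itgal the other probe set gave -0.26 ± 0.09 (limma adjusted p = 0.278), against 0.15. For Itgb3bp, 4 of its 5 probe sets were below 0, and their mean difference was -0.12. For Itga4, 4 of its 5 probe sets were below 0, one of them at -0.22 (unadjusted p = 0.0121), against 0.08 for the one kept, and for Itgav another probe set gave -0.22, against 0.13. For Itgb3 the other probe set gave -0.17, against 0.11. The genes whose probe sets differed in sign, and whose directions above hold for the probe set kept and not for all of them, were Itga1, Itga3, Itga4, Itga5, Itga9, Itgal, Itgav, Itgb1, Itgb2l, Itgb3, Itgb3bp, Itgb5, Lama3, Lama4, Lama5, Lamc1 and Lamc3.

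**Figure D4:**
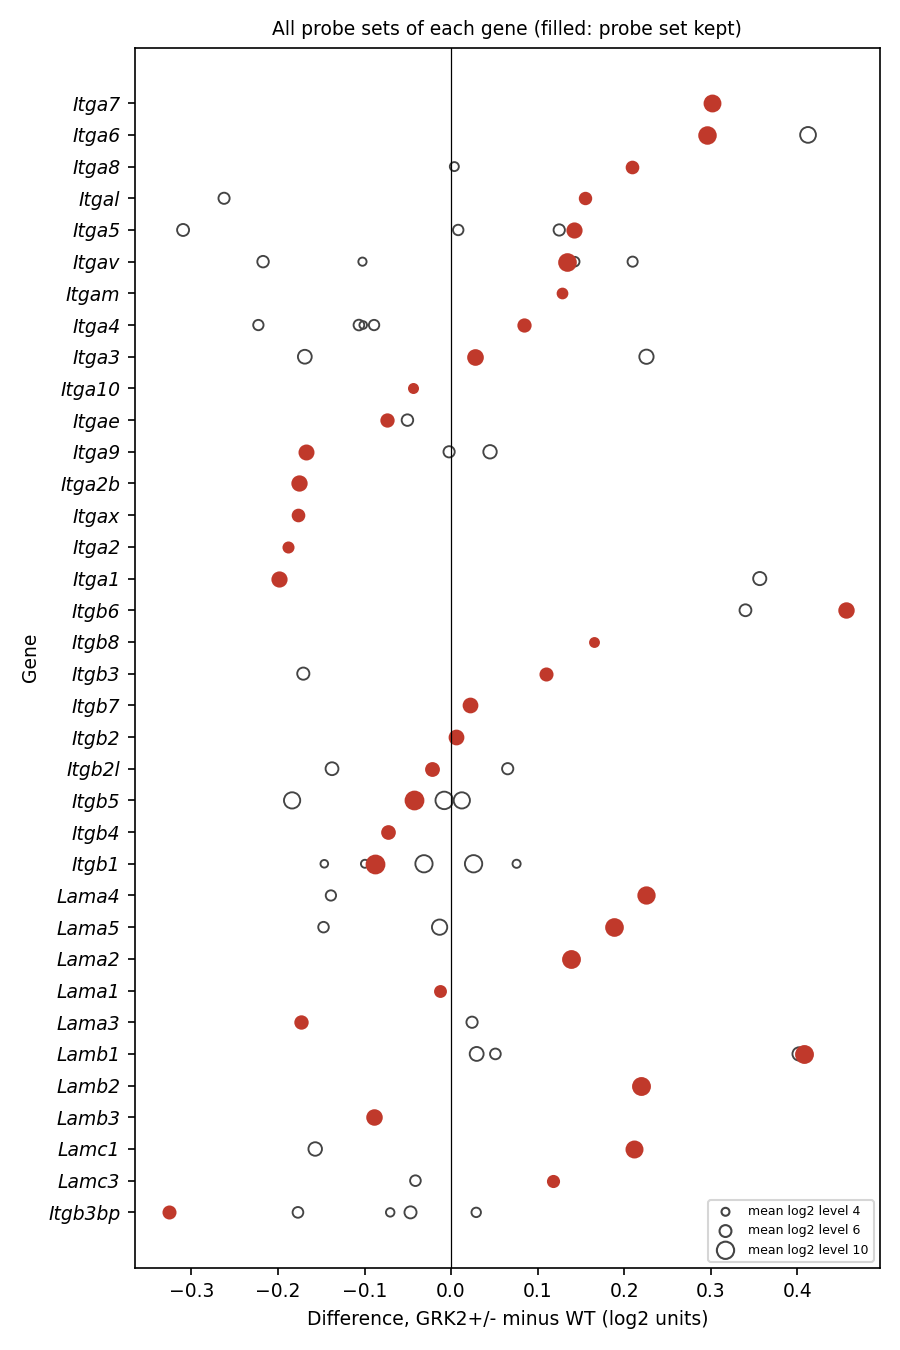
Difference between GRK2+/- and WT hearts (x axis, log2 units) for all 81 probe sets of the 36 genes (y axis); filled points are the probe sets kept, open points the 45 others, and point size follows the mean log2 level. Probe sets of Lamb1, Itgb6 and Itga6 all lie to the right of 0, while those of Itga1, Itgal, Lama4 and Lamc1 lie on both sides.

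The genes that work with these subunits were read from 4 lists, beside 6.3% of all genes higher and 7.7% lower at the unadjusted p, and in none did a gene pass the adjusted threshold (limma, Benjamini-Hochberg over all genes). Of 19 basement membrane partners, 3 were higher, 1 was lower and 15 did not reach the unadjusted p, with a median of 0.0098. The proteoglycan perlecan (Hspg2), which binds laminin in basement membranes, had 9.72, 9.71 and 9.43 in GRK2+/- hearts and 9.34, 9.49 and 9.26 in WT hearts. The groups overlapped through GRK2+/- heart 3, and the difference was 0.26 ± 0.10 (limma adjusted p = 0.297), or 0.12 with the mean of its probe sets. Nidogen 1 (Nid1), which links laminin to collagen IV, had 9.79, 9.81 and 9.66 against 9.66, 9.55 and 9.45, a difference of 0.20 ± 0.08 (limma adjusted p = 0.311). GRK2+/- heart 3 and WT heart 1 met at the second decimal, and the most variable of its probe sets gave -0.034. Netrin 4 (Ntn4), which binds laminin gamma chains, was higher by 0.29 ± 0.12 (0.17 without WT heart 3, 0.12 with the mean of its probe sets), and Sdc4, a heparan sulfate co-receptor of integrins, had a difference of -0.32 ± 0.08 (-0.20 with the mean of its probe sets). Sdc4 had the smallest p of this list (limma adjusted p = 0.17), and all its GRK2+/- hearts were below all WT hearts. The chains of the main collagen IV, Col4a1 and Col4a2, had differences of 0.18 ± 0.16 and 0.14 ± 0.12.

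Of 28 measured genes of the integrin adhesion complex, 1 was higher, 2 were lower and 25 did not reach the unadjusted p, with a median of 0.052. Lims2, whose product PINCH2 binds integrin-linked kinase, measured 10.78, 10.43 and 10.66 in GRK2+/- hearts and 10.89, 11.02 and 11.01 in WT hearts. All GRK2+/- hearts were lower, with a difference of -0.35 ± 0.09 (limma adjusted p = 0.194). Apbb1ip, whose product RIAM recruits talin to integrins in blood cells, had a difference of -0.24 ± 0.08, and the adaptor gene Tns2 was higher by 0.22 ± 0.07. Integrin-linked kinase (Ilk), talin (Tln1) and vinculin (Vcl), core parts of the complex, had differences of 0.01, 0.08 and 0.07.

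In the dystroglycan complex, the other laminin receptor of muscle, 2 of 14 measured genes were higher and 0 lower, with a median of -0.026. Utrophin (Utrn) was higher by 0.24 ± 0.09 (limma adjusted p = 0.299) and dystrophin (Dmd) by 0.22 ± 0.09 (limma adjusted p = 0.352), both of which tie the complex to actin. Without GRK2+/- heart 2, the value for Utrn was 0.14, and with the mean of their probe sets the values were 0.16 for Utrn and 0.076 for Dmd. Dystroglycan itself (Dag1) was at 11.94 in GRK2+/- and 11.96 in WT hearts, a difference of -0.02 ± 0.07.

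Among 21 measured genes for other integrin ligands, 3 were higher and 2 lower, with a median of -0.023. Ltbp1, which holds latent TGF-beta in the matrix, had 8.57, 8.40 and 8.35 in GRK2+/- hearts and 8.15, 8.12 and 8.05 in WT hearts. The groups were apart, with a difference of 0.33 ± 0.08 (limma adjusted p = 0.15), and 0.11 when its probe sets were averaged. The matricellular genes Ccn1 and Ccn2 differed in sign: Ccn1 by 0.47 ± 0.20 and Ccn2 by -0.35 ± 0.10. Ccn1 rested largely on GRK2+/- heart 3, without which it was 0.22, and its groups overlapped; those of Ccn2 did not. Thrombospondin 1 (Thbs1) was higher by 0.33 ± 0.15, by 0.14 without GRK2+/- heart 1 and by 0.19 with the mean of its probe sets. Nephronectin (Npnt), a ligand of Itga8, had a difference of -0.19 ± 0.08, and fibronectin (Fn1) one of -0.05.

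Markers of cell types that make laminins and these receptors were read beside them, again with 6.3% of all genes higher and 7.7% lower at the unadjusted p (9.62% and 6.45% at or above the median level). Of 12 smooth muscle and pericyte markers, 4 were higher (Myh11, Notch3, Pdgfrb and Abcc9, by 0.23 to 0.47) and 0 lower at the unadjusted p. Their differences were above 0 for 8 and below 0 for 4 (Cspg4, Cnn1, Smtn and Des, -0.17 to -0.08). That list's mean log2 level was 9.91 to 10.02 in GRK2+/- and 9.81 to 9.86 in WT hearts, without overlap, and Cnn1 was below the 25th percentile. Of 12 endothelial markers, 3 were higher (Kdr and Cldn5 by 0.55 each, Tek by 0.23) and Robo4 was lower, with a difference of -0.31. Of the endothelial differences, 7 were above 0 and 5 below, and the list ran from 9.37 to 9.45 and from 9.23 to 9.38. Of 10 epicardial and mesothelial markers, 3 were higher (Wt1 by 0.51, Lrrn4 by 0.39 and Upk3b by 0.17) and 0 lower. That list's mean was 6.28 to 6.29 in GRK2+/- against 6.13 to 6.20 in WT hearts. Of their differences, 8 were above 0 and 2 below (Krt8 and Krt18). Lrrn4, among the 3 higher, was below the 25th percentile, and its groups overlapped. Of 12 cardiomyocyte markers, 1 was higher and 0 lower, and the list stood at 14.36 to 14.43 and 14.34 to 14.39. Fibroblast markers gave 1 higher (Col1a1 by 0.30) and 1 lower (Mfap5, -0.53) of 12, with 10.25 to 10.35 against 10.23 to 10.32. The fibroblast differences were above 0 for 8 and below 0 for 4. Schwann cell markers gave 1 lower of 7, with 7.30 to 7.36 against 7.34 to 7.45. Adipocyte markers gave 0 of 6, with 6.64 to 6.70 against 6.64 to 6.76, and Adipoq, Lep, Cidec and Ucp1 below the 25th percentile. Of 8 atrial markers, 4 had differences above 0 and 4 below, with a median of 0.016. At the unadjusted p, Kcnj3 was higher by 0.32, and Nppa, Kcna5 and Bmp10 were lower, with differences of -1.20, -0.34 and -0.19. The mean of that list ran from 7.68 to 7.79 in GRK2+/- and from 7.82 to 7.93 in WT hearts, and Nppa had by far the largest difference in it; Myl7 and Sln were below the 25th percentile. The part of these cell types in the laminin and integrin values was not tested.

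Array medians lay between 6.25 and 6.31. A control for RNA quality, the level of the 3′ minus that of the 5′ probe set of beta-actin, stood at 0.98 ± 0.08 in GRK2+/- and at 0.78 ± 0.04 in WT hearts, without overlap; for Gapdh and pyruvate carboxylase the groups differed by 0.0245 and 0.0205. The part of this difference in the values above was not tested. With groups of 3 hearts, the smallest two-sided p of an exact permutation test is 0.1, and precision is limited by the 6 arrays.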

How the data were processed

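RNA of 6 hearts (3 GRK2+/-, 3 WT) was hybridised to 1 array each. Per the labels' protocols, hearts were stopped with cold potassium chloride, the upper part was excised and stabilised, and biotin-labelled cRNA was made. The deposited values are log2 intensities; RMA and limma are named in the submitters' processing notes, with versions not given in the sources used here. From 45101 rows, 64 control probe sets were left out and 45037 tested; 34945 had 1 gene symbol in the platform annotation (symbols updated through a RefSeq gene table of assembly GRCm38.p6), 932 had several, and 10092 tested probe sets were not named. One probe set per gene, the one with the highest mean, gave 18193 genes. Differences, GRK2+/- minus WT, come from limma 3.58.1 in R 4.3.3 (lmFit, eBayes, two-sided, no covariates) with Benjamini-Hochberg adjustment over all genes or all probe sets and a threshold of 0.05. The fit was tested on simulated data.

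Values in every heart are given for members past the adjusted threshold, with an unadjusted p under 0.05 or with groups that did not overlap. For each pathway list, up to 5 genes with the smallest p under 0.05 are given by their differences. Of these list genes, only Hspg2, Nid1, Lims2 and Ltbp1 are also shown in each heart. Other members are given by their means. Those other members whose values in each heart are also shown, and the list genes without such a p, were chosen after their values were seen. The members, lists, rules and alternatives were chosen with earlier results of these data known. Of 92 pathway genes 82 were measured, and of 125 marker entries 113. The alternatives were array weights, centring, quantile normalisation, limma's trend and robust prior, other probe sets, filters on dim genes, a replicate block and leaving out each heart. Same-numbered hearts of the groups did not deviate together over all genes (correlations of -0.18, -0.0051 and 0.016). With deviations taken from means of 3 hearts, these values cannot tell whether the numbers pair the hearts. No sequences are shown, since the tables used here held none that bear on these differences.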

Additional observations from a re-analysis of the deposited data

How the results depend on the processing

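Under each of the 16 alternatives, 0 of the members tested passed the adjusted threshold (limma). Fitted without these alternatives, 0 of their 81 probe sets did. Over all genes the count passing ranged from 0 to 56, the latter without GRK2+/- heart 1. Lamb1, Itga7 and Itgb6 had an unadjusted p under 0.05 in 16 of 16 alternatives, Lama4 and Lamb2 in 14 of 16, Itgb3bp in 14 of 15, Lamc1 and Itga2b in 10 of 16, and Itga2 in 8 of 14. With the replicate block, 10 members reached that p, 7 higher and 3 lower, beside 1035 higher and 1243 lower of 18193 genes. With it 0 members were called, so the block changed no call of a member, and over all genes 1 passed.

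The choice of probe set moved values most. With the mean of all probe sets the median difference was 0.033 for laminins, -0.030 for integrins and -0.0013 for all members. With the most variable probe set it was -0.050 for integrins and -0.027 for all members. Itgal turned to -0.054 (mean) and -0.26 (most variable), and Itga9, Nid1 and Npnt to 0.045, -0.034 and 0.095 (most variable). Among the other members, Itga4 turned to -0.087 and -0.22, Itga5 to -0.0086 and -0.31, Itgb3 to -0.030 and -0.17 (mean, most variable), Itga1 to 0.079 (mean) and Lamc3 to -0.041 (most variable); 8 other members changed sign under other alternatives. Without genes below the median level, it was 0.21 for laminins and 0.14 for all members. The number of members lower at the unadjusted p was 1 with centred arrays, 5 with the most variable probe set and 1 without genes below the median level. Leaving out 1 heart gave a median of 0.092 to 0.22 for laminins and -0.028 (without GRK2+/- heart 1) to 0.045 for integrins. The lower members then ran from 1 (without GRK2+/- heart 1, where 1198 of 18193 genes were lower) to 5 (without WT heart 1, where 1610 were). Between 13 and 17 members were without overlap, a count that fewer hearts raise by construction (25.6% to 35.5% of all genes, against 19.1% with 6 hearts). Otherwise the cause was not tested. Signal near background limits Itga2, Itga10, Itgam, Itgb8, Lama1 and Lamc3, whose levels were below the 25th percentile.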
